A study of Mus musculus with 20 samples.

Results

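Uterine transcripts of mice given HPTE were compared with those of mice given BPA 24 hr after a single injection of the same mass of compound. BPA (bisphenol A) is the monomer of polycarbonate plastic. HPTE is formed in the body from the insecticide methoxychlor and binds estrogen receptors. Both carry p-hydroxyphenyl groups on a central carbon; BPA has methyl groups on that carbon, and HPTE has a trichloromethyl group and a hydrogen. The comparison was chosen by its labels and used 6 of the 20 arrays of the series, HPTE 24 hr replicates 1, 2 and 3 and BPA 24 hr replicates 1, 2 and 3. It covered the 30444 of 41174 probes that were well above background on all 3 arrays of at least 1 of these groups. Of them, 29304 were well above background throughout both groups, 799 throughout the HPTE group alone and 341 throughout the BPA group alone.

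All mice were C57bl6/J females, adult at 10 weeks or more, ovariectomized and rested for 10 to 14 days before a subcutaneous injection. The BPA and HPTE mice received 750 µg of compound in sesame oil and were studied at 24 hr, with separate groups of 3 arrays each at 2 hr. The vehicle mice received 100 µl sesame oil (24 hr, n = 3), and the estradiol (E2) mice 250 ng E2 in the same oil (24 hr, n = 2). Equal mass is not equal molar amount, since the molecules differ in weight. The labels describe 1 homogenate per uterus, but do not state which array came from which mouse, so p-values measure the spread between arrays and part of it may be technical. Each array holds Cy3-labelled cRNA made from 500 ng total RNA of a whole uterus, a mixture of epithelium, stroma, smooth muscle and other cells.

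In the ovariectomized mouse an estrogen acts through estrogen receptor α (ERα) in waves. Early transcripts such as immediate early genes appear within hours, and a later wave brings biosynthesis, DNA replication and mitosis of the luminal and glandular epithelium. Cholesterol is made from acetyl-CoA through mevalonate, isoprenoids, squalene and lanosterol, and the enzymes of this route are controlled together by the sterol-sensing factor SREBP-2. Cells that divide use some of the same route for membranes and for prenylated proteins.

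Levels are given on a log2 scale relative to the 75th percentile of each array, called normalized log2 intensity, and a difference of 1 is a 2-fold ratio. The 75th percentile itself lay between 1502 and 1633 intensity units on the 6 arrays, and 72.7% to 81.3% of probes were well above background. The arrays came from 6 slides. Slide 5 (HPTE replicate 3, BPA replicate 1) and slide 6 (HPTE replicate 2, BPA replicate 3) held both groups, and slide 6 was scanned on a later day than the others. HPTE replicate 1 lay on slide 2 and BPA replicate 2 on slide 3.

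At 24 hr more probes were called higher than lower with HPTE, and genes of cholesterol synthesis and mitosis were among the higher ones. Of the probes compared, 969 were higher and 337 were lower with HPTE than with BPA (limma, adjusted p under 0.05 over all 32456 probes tested on the arrays, of which 2.99% were higher and 1.09% were lower). These calls represent 1199 gene symbols. The median difference was 0.44 among the higher and -0.54 among the lower probes, and 48 and 32 of them reached 2-fold. All 1306 called probes had HPTE arrays that did not overlap the BPA arrays, where 18.1% of all probes had HPTE above BPA on every array and 17.7% had HPTE below. Because whole uteri were measured, fewer cells of a type and less RNA per cell cannot be told apart in any of these values.

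The number of calls depended on the model, on the arrays included and on the scaling. With slide as a fixed block 11 probes passed, 10 of them shared with the 1306 and in the same direction. With slide as a random block, where the consensus correlation within slides was 0.019, 1361 passed and all 1306 were among them. Without HPTE replicate 2 the count over all probes was 26, and without BPA replicate 2 it was 30, against 1325. Leaving out BPA replicate 1 or 3 or HPTE replicate 1 or 3 gave 484 to 719, and leaving out slide 5 or slide 6 gave 66 and 6. Scaling to the spike-in controls, which moved the median difference of all probes from -0.03 to -0.20, left 0 (2147 at an unadjusted p under 0.05 in limma). A fit of the 6 arrays alone left 0 as well (8542 at an unadjusted p under 0.05).

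Set against vehicle, the compounds differed in how far they had moved from it. Of the 969 higher probes, 625 were higher than vehicle with HPTE and not called with BPA, 249 were higher with both, and 71 were called with neither. In 23 the call was for BPA lower than vehicle only, and in 1 HPTE was higher and BPA lower. Of the 337 lower probes, 251 were lower than vehicle with HPTE and not called with BPA, 42 were lower with both, 36 were called with neither, and 8 were higher with BPA only. Over all probes 14.9% were higher and 19.1% lower than vehicle with HPTE, and 5.09% and 8.03% with BPA. Both contrasts use the same 3 vehicle arrays.

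E2 gave an outside reference, because the E2 and vehicle arrays are not among the 6 compared. E2 at 24 hr raised 26.3% and lowered 37.6% of all probes against vehicle. Of the 8355 compared probes that E2 raised, 928 (11.1%) were higher and 4 (0.0479%) were lower with HPTE than with BPA. Of the 11511 that E2 lowered, 299 (2.6%) were lower and 7 were higher. Of the 10577 that E2 did not change by the test, 34 were higher and 34 lower. Read the other way, 95.8% of the probes higher with HPTE were raised by E2, and 88.7% of those lower with HPTE were lowered by E2. Without BPA replicate 2 these shares were 100% of 24 and 50% of 4 probes, and without HPTE replicate 2 they were 95.2% of 21 and 60% of 5.

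The size of the difference followed the size of the E2 change over its whole range. Probes that E2 raised by more than 4 on the log2 scale had a median HPTE minus BPA difference of 0.79 (59 probes). The median was 0.49 for E2 increases of 2 to 3 (488 probes), 0.08 for 0 to 1 (10045 probes) and -0.08 for decreases of 0 to 1 (11732 probes). It was -0.46 for decreases of 3 to 4 (238 probes) and -1.11 at -4 or below (212 probes). Across the 30443 probes in both comparisons Pearson's r was 0.61 and Spearman's rho 0.60. This correlation is across probes, which are not replicates, and the arrays share slides and probe design. HPTE replicate 1 shared slide 2 with an E2 array, and BPA replicate 2 shared slide 3 with a vehicle array.

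On slide 6, which held neither an E2 nor a vehicle array, r between the single-pair difference and the E2 change was 0.47. There HPTE was above BPA for 81.6% of the E2-raised probes, 29.6% of the E2-lowered probes and 53.3% of the rest. On slide 5, which also held an E2 and a vehicle array, the shares were 76.3%, 32.6% and 47.3% (r = 0.36). The lowest bin holds all 7 measured sperm cell markers, described further below. Without its 212 probes, a choice made after that was seen, r was 0.56, and 287 of the remaining 325 lower probes (88.3%) were lowered by E2.

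**Figure D1:**
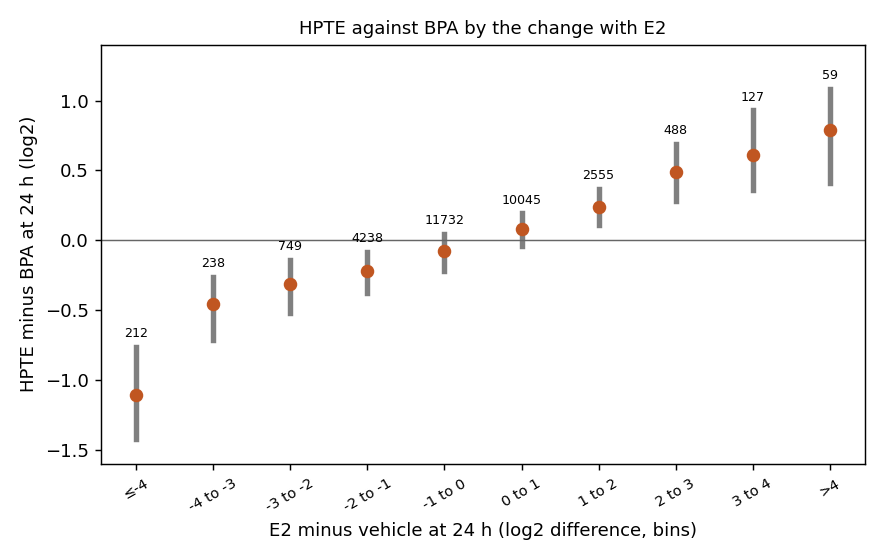
Difference between HPTE and BPA at 24 hr (y axis, log2) for probes grouped by their E2 minus vehicle change at 24 hr (x axis, log2 bins). Points are medians, bars run from the lower to the upper quartile, and the number of probes stands above each bin. The median moves from -1.11 in the lowest bin to 0.79 in the highest and crosses 0 where E2 made no change.

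Most enzymes of cholesterol synthesis were higher with HPTE. All 20 enzymes of the list, from acetyl-CoA to cholesterol, were measured, and HPTE lay above BPA on every array for all 20. The test passed for 14 of them, all higher with HPTE, and all 20 had an unadjusted p under 0.05. The median difference was 0.70, against -0.03 for all probes tested, with 0.61 within slide 5 and 0.85 within slide 6. Against vehicle the list's median was 0.82 with HPTE (17 of 20 higher), 0.03 with BPA (3 higher and 1 lower) and 1.78 with E2 (20 of 20 higher).

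Early in the pathway, Mvk, Pmvk and Mvd turn mevalonate into isopentenyl diphosphate. They were higher with HPTE by 0.88, 0.47 and 1.0. Idi1 makes the isomer that starts isoprenoid chains, and its levels were 0.29, -0.06 and 0.09 with BPA and 1.25, 1.96 and 1.56 with HPTE. The difference was 1.49 (SE 0.20, adjusted p = 0.005279), and the groups did not overlap. The array design places both Idi1 probes on chromosome 2 (53701852 to 53701911, build mm7, for the one given), whereas RefSeq places the gene on chromosome 13, so the probes' target is uncertain. Fdps joins isoprenes into farnesyl diphosphate. Its levels were 0.33, 0.18 and 0.40 with BPA and 1.49, 1.84 and 1.45 with HPTE, a difference of 1.29 (SE 0.14, adjusted p = 0.002742), the smallest adjusted p of the list.

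Sqle, the epoxidase that commits squalene to sterols, differed from vehicle by -0.40 with BPA, which did not pass, and by 1.06 with HPTE, which did. It measured -0.30, -0.44 and -0.32 with BPA and 0.86, 1.49 and 0.98 with HPTE, and the difference was 1.46 (SE 0.18, adjusted p = 0.004415). Lss cyclizes the product to lanosterol and was higher with HPTE by 0.48, with -0.01 against vehicle for HPTE and -0.49 for BPA. The later demethylation and reduction steps followed. Msmo1 differed by 1.17, Cyp51 by 0.99, Dhcr7 by 0.75, Nsdhl by 0.69 and Ebp by 0.29, and all passed.

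Hmgcs1, which makes HMG-CoA, passed narrowly at 0.71 (adjusted p = 0.04256). Among the 6 enzymes that did not pass were Hsd17b7 (0.58), Fdft1 (0.45), Sc5d (0.41), Tm7sf2 (0.28) and Acat2 (0.21).

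HPTE replicate 2 was the highest of the 3 HPTE arrays for Idi1, Sqle, Fdps and Hmgcs1. Without it 8 of the 20 enzymes passed, and the median was 0.59. Without BPA replicate 2 the count was also 8 (median 0.64), and without slide 5 or slide 6 it was 6 and 2. Mvk, Mvd, Idi1, Fdps, Sqle, Msmo1 and Nsdhl were among the 8 that passed whichever of the 6 arrays was left out. With slide as a fixed block 4 passed, Idi1, Fdps and Sqle among them. With spike-in scaling and in the fit of the 6 arrays alone 0 passed in limma (8 and 19 at an unadjusted p under 0.05), and the median stayed positive at 0.53 and 0.70.

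**Figure D2:**
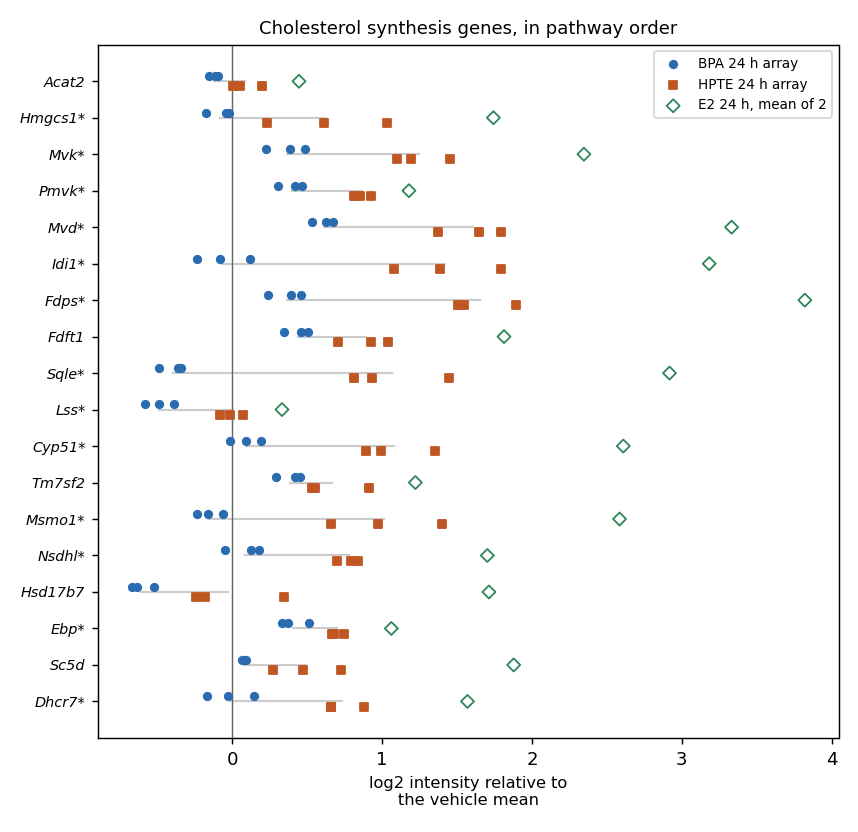
Normalized log2 intensity relative to the vehicle mean (x axis) for 18 of the 20 enzymes of cholesterol synthesis in pathway order (y axis). Each blue circle is a BPA array, each orange square an HPTE array (n = 3 each) and each green diamond the mean of the 2 E2 arrays, all at 24 hr. Asterisks mark adjusted p under 0.05 for HPTE against BPA. The squares lie to the right of the circles for every gene, and the E2 mean lies to the right of the HPTE mean.

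Promoter sequences from RefSeq (GRCm38.p6, 250 bases before to 50 after the gene start) were searched on both strands for the sterol response element TCACNCCAC and the full estrogen response element GGTCANNNTGACC. Neither motif contains the other. Of all 32851 promoters, 1.24% held the first and 0.07% the second. Counted by gene the shares were 1.44% and 0.074%. Of the 15 cholesterol genes with a promoter in the table (18 promoters), Hmgcs1 held the sterol element, at position -137 from the start, and 0 held the estrogen element. Presence or absence of an exact match describes the sequence and is no evidence on binding. The Hmgcs1 promoter is shown because it carries the element. Idi1 is shown because its probes, whose target is uncertain, had a larger difference and its promoter lacks the element. Hmgcs1 lies at chr13:119690101-119690400 on the plus strand and Idi1 at chr13:8885356-8885655 on the plus strand. Capitals mark the sterol response element.
Hmgcs1: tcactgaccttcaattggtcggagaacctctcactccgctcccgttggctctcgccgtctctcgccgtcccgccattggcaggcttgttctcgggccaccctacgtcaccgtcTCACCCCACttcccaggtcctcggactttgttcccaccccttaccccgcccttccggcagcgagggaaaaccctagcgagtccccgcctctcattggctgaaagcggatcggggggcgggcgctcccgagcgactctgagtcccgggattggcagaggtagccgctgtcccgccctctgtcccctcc
Idi1: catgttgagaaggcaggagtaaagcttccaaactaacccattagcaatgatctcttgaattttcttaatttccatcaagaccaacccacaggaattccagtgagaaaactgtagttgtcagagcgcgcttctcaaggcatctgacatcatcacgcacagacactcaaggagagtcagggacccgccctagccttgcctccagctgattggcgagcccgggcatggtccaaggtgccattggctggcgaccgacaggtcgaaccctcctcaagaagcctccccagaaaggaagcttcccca

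Fewer genes of sterol sensing, uptake and export differed. Of 12 measured genes 3 passed, all higher with HPTE, and the median of the list was 0.25. Srebf2, which encodes SREBP-2, was higher by 0.49 (adjusted p = 0.03637) and was called in 0 of the 6 fits that left out an array. The exporters Abca1 (-0.43) and Abcg1 (-0.49) and the ubiquitin ligase Mylip (-0.38), all targets of the liver X receptors, had differences below 0 that did not pass. In the 12 promoters found for 7 of these genes, 0 held the sterol element.

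Genes of mitosis were also higher with HPTE. HPTE lay above BPA on every array for all 25 genes of the G2/M list, of which 15 passed, all higher with HPTE, and 24 had an unadjusted p under 0.05. The median difference was 0.80, with 0.58 within slide 5 and 0.88 within slide 6. Unlike the sterol enzymes, these genes were also raised by BPA. Against vehicle the list's median was 1.71 with BPA (24 of 25 higher), 2.46 with HPTE (25 higher) and 2.81 with E2 (25 higher).

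Ccnb2 and Ccnb1 encode the B cyclins that activate Cdk1 at mitotic entry. Ccnb2 measured 2.25, 1.78 and 2.20 with BPA and 3.1, 3.13 and 3.11 with HPTE (difference 1.04, SE 0.22, adjusted p = 0.0198). BPA replicate 2 was the lowest array, and the HPTE arrays lay close together. Ccnb1 measured -1.42, -1.77 and -1.50 with BPA and -0.51, -0.44 and -0.55 with HPTE, a difference of 1.06 (adjusted p = 0.04788) that was not called in any of the 6 fits that left out an array. Cdk1 itself differed by 0.69.

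Cdc20, which turns on the anaphase-promoting complex, measured 2.55, 2.20 and 2.50 with BPA and 3.40, 3.45 and 3.36 with HPTE (0.99, SE 0.20, adjusted p = 0.01597). Ube2c, the ubiquitin carrier of the same complex, differed by 0.93. The mitotic kinases Plk1 (0.94), Aurka (0.86) and Aurkb (0.78) were higher with HPTE, as were the Aurkb partner Birc5 (1.01), the spindle protein Tpx2 (0.71) and the motor Kif20a (0.84). At the kinetochore Cenpe (0.99), Cenpf (0.96) and Ndc80 (0.69) were higher, and so was the spindle protein Nusap1 (0.79). The other 10 members, among them Cdc25c (0.98), Ccna2 (0.82), Bub1 (0.80) and Top2a (0.42), did not pass.

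For Cenpe, Cenpf, Nusap1 and Kif23 the HPTE change against vehicle (2.70, 2.88, 2.67 and 2.54) was above that of E2 (2.50, 2.20, 2.56 and 2.43); the difference between HPTE and E2 was not tested. Called mitotic genes fell to 0 without HPTE replicate 2 (24 at an unadjusted p under 0.05 in limma), without BPA replicate 2 (21) and with slide as a fixed block (23), and 5 to 11 passed when another array was left out. The median was between 0.63 and 0.92 in every fit, and all members were positive in each.

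The G2/M promoters were searched for TTTGAA, the cell cycle gene homology region bound by the DREAM complex, a search added after the lists above had been examined. It was present in 17.9% of the promoters searched and in 15 of the 21 promoters found for 20 G2/M genes (71.4%). A match of 6 letters describes the sequence and is no evidence of binding. Ccnb2 and Cdc20 are shown as members with the motif among the larger differences. Ccnb2 lies at chr9:70421505-70421804 and Cdc20 at chr4:118437294-118437593, both on the minus strand, and capitals mark TTTGAA.
Ccnb2: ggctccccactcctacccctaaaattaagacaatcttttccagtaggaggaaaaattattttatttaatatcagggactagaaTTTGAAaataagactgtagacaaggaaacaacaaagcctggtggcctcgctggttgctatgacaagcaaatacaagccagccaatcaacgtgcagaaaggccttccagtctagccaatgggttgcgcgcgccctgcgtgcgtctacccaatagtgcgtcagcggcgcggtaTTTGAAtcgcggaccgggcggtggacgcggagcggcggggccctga
Cdc20: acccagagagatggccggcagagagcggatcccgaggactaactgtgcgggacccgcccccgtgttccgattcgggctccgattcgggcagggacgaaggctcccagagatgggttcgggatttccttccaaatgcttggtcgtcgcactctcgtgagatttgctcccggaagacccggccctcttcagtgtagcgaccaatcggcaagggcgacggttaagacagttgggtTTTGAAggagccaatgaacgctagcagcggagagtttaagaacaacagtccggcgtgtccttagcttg

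About as many genes of DNA replication were higher with HPTE. Of 27 measured genes of DNA replication and S phase 13 passed, all higher with HPTE, and HPTE lay above BPA on every array for 20. The median difference was 0.44, with 0.28 within slide 5 and 0.65 within slide 6. Against vehicle the median was 0.04 with BPA (1 higher, 4 lower), 0.47 with HPTE (16 higher, 1 lower) and 1.99 with E2 (27 higher).

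Tk1, the thymidine kinase of the salvage route, measured 0.06, -0.21 and -0.13 with BPA and 0.90, 1.03 and 0.57 with HPTE (0.93, SE 0.21, adjusted p = 0.02859). It was 1.27 above vehicle with BPA, 2.20 with HPTE and 3.53 with E2. Nucleotide supply was higher with HPTE at Tyms (0.74) and the ribonucleotide reductase subunit Rrm1 (0.44), while the other subunit Rrm2 (0.49) did not pass. Uhrf1, which directs maintenance methylation of new DNA, differed by 0.88. Among the MCM helicase subunits Mcm5 (0.64), Mcm3 (0.52) and Mcm6 (0.36) passed, and Mcm2 (0.15), Mcm4 (0.15) and Mcm7 (0.15) did not. Gins1 (0.55), Cdt1 (0.41), Lig1 (0.40), Rfc4 (0.39) and Prim1 (0.36), which load or build the fork, passed as well.

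Without HPTE replicate 2 none of these replication genes was called by limma (15 at an unadjusted p under 0.05), without BPA replicate 2 only 1, and with slide as a fixed block 0 (20). When another array was left out 5 to 12 passed. With spike-in scaling the median was 0.26.

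**Figure D3:**
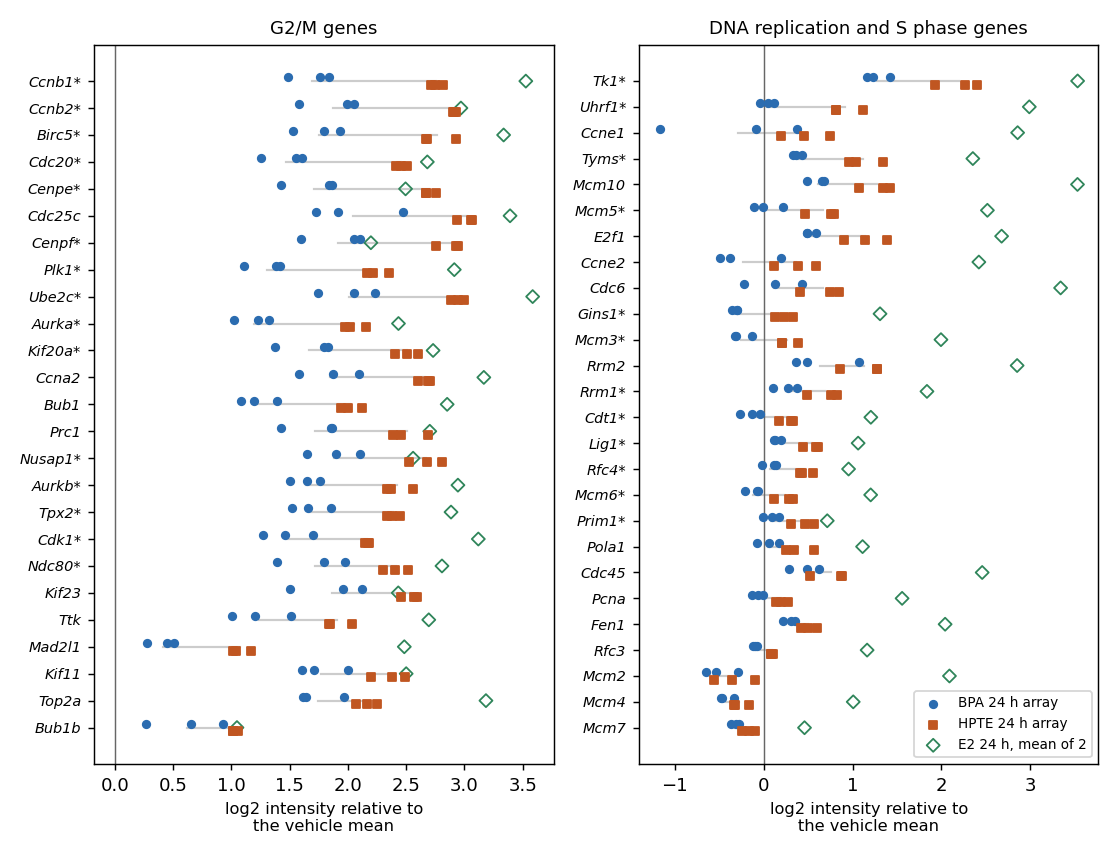
Normalized log2 intensity relative to the vehicle mean (x axis) for the genes of the G2/M list (25) and of DNA replication and S phase (26 of 27). Blue circles are BPA arrays, orange squares HPTE arrays (n = 3 each) and green diamonds the mean of the 2 E2 arrays at 24 hr; asterisks mark adjusted p under 0.05 for HPTE against BPA. BPA arrays stand well to the right of 0 for most G2/M genes and near 0 for most replication genes.

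Markers of epithelium lay on the same side. Of 11 markers, Elf3 (0.86) and Krt7 (0.51) were higher with HPTE, and 10 had HPTE above BPA on every array. Their median difference was 0.40, and their summed level was 3.60 to 3.68 with BPA and 3.92 to 4.03 with HPTE. Against vehicle the epithelial median was 0.35 with BPA and 0.75 with HPTE, and Krt18, Krt8 and Epcam were well above background on all 6 arrays. Skeletal muscle markers also stood higher, with a median of 0.38 and all 6 measured genes above 0. Tnni2 (0.97, adjusted p = 0.01946) and Tnnt3 (0.83, adjusted p = 0.007462), which encode troponins, were called, and the summed level was 0.63 to 1.11 with BPA and 1.36 to 1.80 with HPTE. The smooth muscle median was 0.21, the stromal median 0.09 and the exocrine pancreas median 0.10, with 0 calls by limma in each (4, 0 and 0 genes at an unadjusted p under 0.05). The part of these shifts in the sterol and cell cycle differences was not tested.

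Secreted and cornified epithelial products gave 3 calls among 16 genes, all higher with HPTE, with a median of 0.49. Lcn2 (lipocalin 2, which binds bacterial siderophores) differed by 0.81 (adjusted p = 0.02155) and the membrane mucin Muc4 by 0.70 (adjusted p = 0.02096). Sprr2d, a cornified envelope protein of a family whose members share sequence, measured -6.52, -7.88 and -7.03 with BPA and -5.91, -4.86 and -5.53 with HPTE (1.71, SE 0.44, adjusted p = 0.04275). Its probe was well above background on 1 of the 3 BPA arrays and on all HPTE arrays. It was at least 167-fold higher with E2 than with vehicle, where no array was well above background (adjusted p = 8.124e-09), and with normexp background correction it was not called (0.42). Of the 6 fits that left out an array, Sprr2d and Muc4 were called in 1 each and Lcn2 in 3.

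Outside the lists, the largest single differences were at dim probes. Crtac1, which encodes cartilage acidic protein, measured -6.49, -7.01 and -7.71 with BPA and -4.75, -4.80 and -4.87 with HPTE. The difference was 2.26 (SE 0.33, adjusted p = 0.007462), and both of its probes were called. At the brighter probe the difference was 1.84 (adjusted p = 0.002742), and E2 raised it by 5.81. Cdhr1, a photoreceptor cadherin (chromosome 14, 34505752 to 34505811, mm7), had no BPA array well above background and measured -5.60, -6.25 and -6.12 with HPTE. It entered the comparison through the HPTE group alone and was at least 2.04-fold higher with HPTE. The adjusted p of 0.008694 (limma) belongs to the fitted difference of 2.51, which uses BPA values not well above background. Every adjusted p given beside a bound is likewise that of the fitted difference. No vehicle or E2 array at 24 hr was well above background for Cdhr1.

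The receptor tyrosine kinase gene Ros1 was at least 1.71-fold higher with HPTE (adjusted p = 0.02753). Bpifb5, of the family of lipid-binding secreted proteins, differed by 1.78 (SE 0.36, adjusted p = 0.01628) and Cibar2 by 1.24 (SE 0.28, adjusted p = 0.02632). Cibar2 was called in 0 of the 6 fits that left out an array, and Ros1 and Bpifb5 in 2 each. E2 raised Bpifb5 and Cibar2 by 2.40 and 1.81, and Ros1 was at least 5.44-fold higher with E2 than with vehicle (adjusted p = 1.705e-07). For dim probes the size depends on background: with normexp correction Cdhr1 differed by 0.32 and Crtac1 by 0.64.

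Comp, Myoc and Coch, which encode secreted proteins, were lower with HPTE at probes well above background on all 6 arrays. Of the 23 collagen and matrix genes 0 were called lower, where 1.09% of all probes were, and 12 had a difference above 0. Comp, the cartilage oligomeric matrix protein, measured -2.19, -2.24 and -2.46 with BPA and -3.52, -3.72 and -3.61 with HPTE (difference -1.32, SE 0.21, adjusted p = 0.009334). Myoc (myocilin) measured -1.71, -1.70 and -2.22 with BPA and -3.09, -3.26 and -3.26 with HPTE (-1.33, SE 0.25, adjusted p = 0.01397). Neither group overlapped the other, and with E2 Comp fell by 3.19 and Myoc fell by 4.26. Coch (cochlin), which fell by 6.12 with E2, differed by -1.21 (adjusted p = 0.04342) and was not called in any fit that left out an array.

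Igf1r and Igfbp3 of the IGF axis were lower with HPTE. Of 15 measured genes of IGF and EGF signalling 2 passed, both lower with HPTE, and the list's median was -0.05. Igf1r, the receptor of insulin-like growth factor 1, measured 1.54, 1.55 and 1.47 with BPA and 0.98, 1.02 and 0.96 with HPTE. The difference was -0.53 (SE 0.08, adjusted p = 0.007462), with -0.43 against vehicle for HPTE, 0.11 for BPA and -1.78 for E2. Igfbp3, which binds and carries IGF1, measured 3.92, 4.06 and 3.59 with BPA and 3.26, 2.89 and 3.14 with HPTE. It differed by -0.76 (SE 0.13, adjusted p = 0.0105), and with E2 it fell by 3.80. Without BPA replicate 2 neither gene was called, nor were Comp, Myoc and Cdhr1, with the signs kept. Igfbp3, Comp and Myoc were also not called without HPTE replicate 2. Comp and Myoc were not called with slide as a fixed block or without slide 5 or slide 6 either.

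Kcnip2, a potassium channel partner, differed by -1.49 (SE 0.26, adjusted p = 0.01156) and Star, which brings cholesterol into mitochondria for steroid synthesis, by -1.37 (SE 0.30, adjusted p = 0.02357), at 1 of 2 Star probes. Tmigd3 differed by -2.24 (SE 0.47, adjusted p = 0.0198). Thsd7b was at least 2.38-fold lower (adjusted p = 0.01707) and Mpp4 at least 1.89-fold lower (adjusted p = 0.03974) with HPTE, where no array was well above background. Timd4 (-2.02) and Adgrf1 (-1.66) rested on probes above background on 1 of 3 HPTE arrays, and Timd4 was called in 0 of the 6 fits that left out an array. In these fits Adgrf1 and Mpp4 were called in 1, Star and Tmigd3 in 2, Thsd7b in 3 and Kcnip2 in 4. Star is also the called member of the 4 measured ovary and oviduct markers, whose median was -0.42.

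Cxcr2, a chemokine receptor of neutrophils, was at least 2.55-fold lower with HPTE (adjusted p = 0.03646), with -4.94, -5.99 and -6.10 for BPA and no HPTE array well above background. With BPA it was at least 2.38-fold above vehicle, where no array was well above background (adjusted p = 0.04305), and the HPTE and BPA difference was called in 0 of the 6 fits that left out an array. The neutrophil markers stood in the same order: 6 of 11, Cxcr2 included, had HPTE below BPA on every array, with a median of -1.31 and a summed level of -1.31 to -0.26 with BPA and -2.56 to -1.98 with HPTE. S100a8 and S100a9 had differences of -2.48 and -2.44 that did not pass. Markers of other cells stood lower with HPTE as well. The median was -1.09 for adipocytes (0 of 9 genes positive), -0.71 for eosinophils, -0.58 for lymphocytes and lymph node, -0.50 for mast cells, -0.32 for macrophages (1 of 12 positive), -0.43 for erythroid cells, -0.14 for endothelium and -0.84 for the 2 measured liver genes, with 0 calls by limma in each (in that order 2, 1, 5, 0, 3, 0, 2 and 1 genes at an unadjusted p under 0.05). The adipocyte level summed to 1.92 to 2.26 with BPA and -0.53 to 2.53 with HPTE, so the groups overlapped. Several of these lists also stood lower with HPTE at 2 hr. Their 2 hr medians were -1.34 for macrophages, -1.08 for neutrophils, -1.07 for lymphocytes and lymph node, -0.95 for erythroid cells and -0.34 for mast cells. The others were 0.56 for adipocytes, 0.50 for liver, 0.11 for eosinophils and 0.06 for endothelium. The part of these cells' RNA in the lower calls was not tested.

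Gk2, a glycerol kinase of testis, measured -5.50, -4.92 and -4.41 with BPA and -7.41, -7.45 and -6.50 with HPTE (-2.18, adjusted p = 0.04146, called in 0 of the 6 fits that left out an array). In vehicle it was at -1.49. All 7 measured sperm cell markers, protamines Prm1 and Prm2 among them, had HPTE below BPA on every array and a median of -1.41, with 0 called by limma and 7 at an unadjusted p under 0.05. Against vehicle their medians were -3.57 with BPA, -5.02 with HPTE and -6.82 with E2. At 2 hr the median HPTE minus BPA difference of these markers was -1.53, with 0 called. Gk2 differed by -1.99 at 2 hr, which did not pass (limma, adjusted p = 0.114). With normexp background correction, Cxcr2, Gk2, Tmigd3, Timd4, Adgrf1, Thsd7b and Mpp4 were not called, at differences between -0.70 and -0.18. The part of sperm cell RNA in the calls was not tested.

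**Figure D4:**
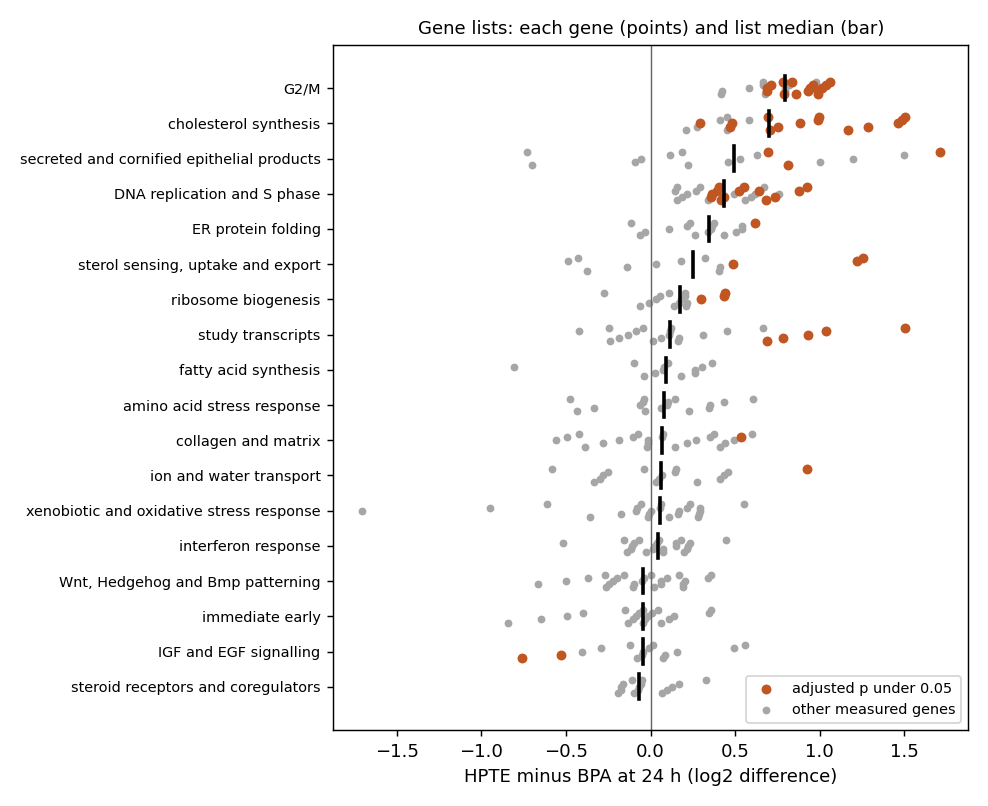
Difference between HPTE and BPA at 24 hr (x axis, log2) for each measured gene of the 18 lists (y axis). Points are genes, orange where adjusted p was under 0.05, and black bars are list medians. Cholesterol synthesis (median 0.70), G2/M (0.80) and DNA replication (0.44) lie to the right of 0, and most other medians lie near it.

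For the receptor itself and some of its classical targets the difference was within the error of the arrays. Esr1, which encodes ERα, differed by -0.05 (95% interval -0.47 to 0.36), and Greb1, a direct ERα target, by 0.13 (-0.23 to 0.49). Pgr, the progesterone receptor, differed by 0.07 (-0.13 to 0.26) at its brighter probe, whereas its dimmer probe was called at 0.57 (adjusted p = 0.03826). Ltf (lactotransferrin) differed by 0.22 with a wide interval of -0.73 to 1.17. None of the 15 steroid receptor and coregulator genes passed by their brightest probe (limma, 2 at an unadjusted p under 0.05).

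The immediate early list (20 genes), with Fos at 0.11, had 0 calls and 4 at an unadjusted p under 0.05. Fatty acid synthesis (12 genes, 3 unadjusted), amino acid stress response (16, 5), Wnt, Hedgehog and Bmp patterning (24, 3), xenobiotic and oxidative stress response (23, 7) and interferon response (22, 2) also had 0 calls by limma. Their medians were 0.09, 0.08, -0.04, 0.05 and 0.04. Within the xenobiotic list Cyp1b1, an estrogen-hydroxylating enzyme, was -1.70 (95% interval -3.07 to -0.34, adjusted p = 0.1411) and the quinone reductase Nqo1 0.55 (adjusted p = 0.05078).

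The remaining lists gave 1 to 3 calls each, where 4.08% of all probes tested were called, and the lists with 1 call were near that share. The folding enzyme Pdia3 differed by 0.62 (1 of 16 genes of ER protein folding, median 0.35), and the nucleolar proteins Nhp2 (0.44), Nop56 (0.44) and Fbl (0.30) were the 3 calls of 16 in ribosome biogenesis (median 0.17), none of them called when any 1 of the 6 arrays was left out. Col5a1, a fibrillar collagen chain, differed by 0.54 (adjusted p = 0.04644; 1 of 23, median 0.07), and Clca1, a secreted regulator of chloride current, by 0.92 (adjusted p = 0.03712; 1 of 16, median 0.06). Of the 6 fits that left out an array, Col5a1 and Clca1 were called in 2 each and Pdia3 in 1. Among the 22 transcripts the study itself followed, 5 were higher with HPTE, Ccnb2, Ube2c, Aurkb and Cdk1 among them, and the 17 others, such as Mad2l1 (0.66), Ppp2r2c (0.45), Stat5a (0.31), Mvp (0.17), Cdkn1a (0.16), Nr4a1 (0.06), Inhbb (-0.09), Per1 (-0.24) and Wnt4 (-0.24), did not pass. The paper took most of these transcripts from its earlier work on E2 responses and the others from apparent xenoestrogen responses on its microarrays. They are a chosen set, so their count is no rate for genes in general.

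Fewer probes were called between the same compounds at 2 hr. Over all probes 142 (0.438%) were called, 78 higher and 64 lower with HPTE, and the count ran from 14 without HPTE 2 hr replicate 2 to 1225 without BPA 2 hr replicate 3. By an unadjusted p under 0.05 in limma the counts were closer, with 5267 probes at 2 hr and 6805 at 24 hr. The cholesterol, G2/M and replication lists had medians of 0.15, -0.13 and 0.02 at 2 hr. The change of the difference from 2 hr to 24 hr was tested as an interaction, which passed for 28 probes (0.0863%), with 15 positive and 13 negative. Fdps was the 1 enzyme of cholesterol synthesis among them, with a difference of 0.11 at 2 hr and 1.29 at 24 hr (change 1.17, SE 0.20, adjusted p = 0.03591).

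Vcam1, the adhesion molecule that binds leukocyte integrins, crossed over at 1 of its 2 probes. At 2 hr it measured -0.79, -0.82 and -0.94 with BPA and -1.61, -1.67 and -1.48 with HPTE, and at 24 hr -0.05, -0.20 and -0.11 with BPA and 0.53, 0.55 and 0.31 with HPTE. HPTE was thus lower by 0.74 at 2 hr (adjusted p = 0.03154) and higher by 0.58 at 24 hr (adjusted p = 0.02819), a change of 1.32 (SE 0.19, adjusted p = 0.02633). Ppp1r3c, which targets a phosphatase to glycogen, crossed the other way, with 0.64 at 2 hr and -0.52 at 24 hr (change -1.16, SE 0.14, adjusted p = 0.01971), and so did Nudt6 with 0.49 and -0.41. Ppp1r3c and Nudt6 also have 2 probes each, of which 1 was called at 24 hr. In the 12 fits that each left out an array, the interaction was called in 5 for Vcam1, 8 for Ppp1r3c and 3 for Nudt6. It was called in 3 for Fdps, Crtac1 and Anks6, in 2 for Cdhr1, Ttl and Pdxp, and in 1 for Cenpa. Cenpa, the centromeric histone H3 variant, differed by -0.35 at 2 hr, which did not pass, and by 1.0 at 24 hr.

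Ttl, Anks6 and Pdxp were higher with HPTE at 2 hr and not called at 24 hr. Anks6, a protein of the primary cilium, measured -1.04, -0.84 and -1.30 with BPA and 0.22, 0.11 and -0.10 with HPTE at 2 hr, a difference of 1.14 (adjusted p = 0.00272). At 24 hr it differed by -0.03. The tubulin tyrosine ligase Ttl differed by 1.24 at 2 hr and -0.17 at 24 hr, and the pyridoxal phosphatase Pdxp by 0.89 and -0.10. The interaction count was 0 without replicate 2 of HPTE or BPA at 24 hr, without replicate 1 or 2 of HPTE at 2 hr and with slide as a fixed block (4249 at an unadjusted p under 0.05 in limma in that fit).

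**Figure D5:**
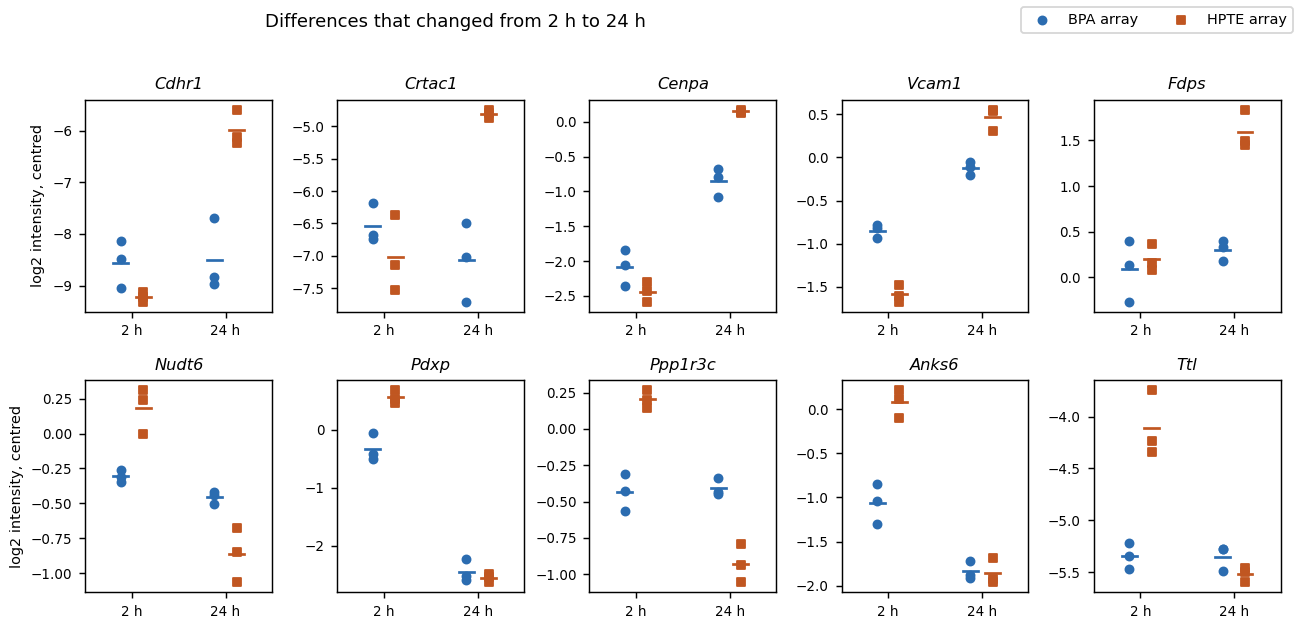
Normalized log2 intensity (y axis) at 2 hr and 24 hr (x axis) for the 10 named genes whose HPTE minus BPA difference changed between the times. Blue circles are BPA arrays, orange squares HPTE arrays (n = 3 each), and short lines are the means. The order of the BPA and HPTE means reverses between the times for all but Fdps, with called differences at both times for Vcam1, Ppp1r3c and Nudt6, each at 1 of 2 probes. Cdhr1 was not well above background on any BPA or HPTE array at 2 hr.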

How the data were processed

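Uterine RNA of C57bl6/J ovariectomized mice was hybridized by the submitters to Agilent whole mouse genome arrays in 1 colour (Cy3). The deposited scanner files hold a processed signal per spot as an intensity, background-subtracted by the authors with Agilent Feature Extraction 9.5 per the labels, and well-above-background flags, another deposited column that was used as given. No depth exists for arrays, so the number of arrays limits the precision.

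Of 45018 spots, 1639 control spots were left out and spots of a probe were averaged. The log2 intensity was taken relative to the 75th percentile of each array. All 20 arrays in 7 groups were fitted in 1 means model with limma 3.58.1 (R 4.3.3) on the 32456 probes that all arrays of some group showed well above background, and p-values were adjusted by Benjamini-Hochberg over all of them with a threshold of 0.05. The moderated variance had 1.903 prior degrees of freedom. Lists used the probe with the highest mean per gene; their counts and medians are descriptions. A probe not well above background on any array of a group gave a lower bound of its fold. An adjusted p beside such a bound is that of the fitted difference. Gene symbols were updated through accessions of a RefSeq table for 23070 probes. Positions are those of the array design (mm7). Figures were drawn with matplotlib 3.10.9 (Python 3.11.15).

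The genes named are the 12 largest differences in each direction among called probes without overlap of the groups, the leading members of each list, the study's transcripts (8 of the 22 are counted but not named) and the 5 largest interactions in each direction. Rik, clone, DNA segment and unnamed probes were left out of these rankings. The values of some of these genes are not reported here, though the counts and medians include them. The members, lists and tests were chosen with earlier results of these data known. The correlation without the strongest E2 decreases and the TTTGAA search were added after the data were seen. Same-numbered HPTE and BPA arrays had correlated deviations of -0.06, -0.36 and -0.28, so replicate numbers were not taken as pairs; arrays on the same slide had 0.40 (slide 5) and 0.51 (slide 6), and HPTE replicate 1 and BPA replicate 2, on slides 2 and 3, also had 0.40. Alternatives were other scalings and background corrections, filters, slide or replicate number as a block, array weights, a variance trend, and leaving out arrays or slides.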

Additional observations from a re-analysis of the deposited data

Results flagged for a closer look

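The difference between HPTE and BPA changed between 2 hr and 24 hr for the genes below, by the interaction term of the limma fit. The change, 24 hr minus 2 hr on the log2 scale, was 3.18 for Cdhr1, 2.74 for Crtac1, 1.35 for Cenpa, 1.32 for Vcam1 and 1.17 for Fdps. It was -1.41 for Ttl, -1.16 for Anks6, -1.16 for Ppp1r3c, -0.99 for Pdxp and -0.89 for Nudt6. The adjusted p was 0.01971 for Ppp1r3c, 0.02633 for Vcam1 and 0.03333 for Nudt6, and 0.03591 for each of the other 7. Of the 12 fits that left out an array, between 1 (Cenpa) and 8 (Ppp1r3c) called the change of a gene. Cdhr1 was not well above background on any BPA array at 24 hr or on any array of either compound at 2 hr, so its change is a fitted value and no bound. Vcam1, Ppp1r3c and Nudt6 had called differences of opposite sign at the 2 times, each at 1 of its 2 probes.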

How the results depend on the processing

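Counts of calls moved with the processing. The 1325 probes called at 24 hr became 871 with quantile normalization (670 higher, 201 lower), 23 unscaled (20 and 3), 0 with spike-in scaling (2147 at an unadjusted p under 0.05 in limma), 785 with no filter on dim probes, 11 with slide as a fixed block (8 higher, 3 lower), 4528 with array weights, 66 without slide 5, 6 without slide 6, 0 with only the compared groups in the fit (8542 unadjusted) and 96 with a 2-fold requirement (49 higher, 47 lower). Leaving out 1 array gave 26 (HPTE replicate 2) to 719 (HPTE replicate 3). The replicate block gave 921, with 861 of its 903 calls among the compared probes shared. At 2 hr the 142 calls became 91 with quantile normalization (65 and 26), 120 with normexp (87 and 33), 15 unscaled, 0 with spike-in scaling (1798 unadjusted), 63 with no filter, 79 with slide as a fixed block (27 and 52), 888 with array weights, 228 with a variance trend, 0 with only the compared groups (3176 unadjusted), 55 with a 2-fold requirement (10 and 45), 113 with the replicate block and 14 to 1225 without 1 array. The 28 interaction calls became 81 with normexp, 0 unscaled (2868 unadjusted), 0 after spike-in scaling (1837 unadjusted), 2 with no filter, 0 with slide as a fixed block (4249 unadjusted), 6 with the replicate block, 1063 with array weights, 73 with a variance trend, 5 with only the compared groups, 12 with a 2-fold requirement and 0 to 409 without 1 array. The cause of these shifts was not tested.

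The share of lower probes that E2 lowered was 50% without BPA 24 hr replicate 2 (4 probes) and at most 93.3% without another array. The S phase median was 0.26 with spike-in scaling. Of the 18 list medians 10 turned sign in some setting. Among them were ion and water transport (-0.113), collagen and matrix (-0.103) and the study's transcripts (-0.054) after spike-in scaling, IGF and EGF signalling without 1 array (-0.111 without HPTE replicate 3, to 0.012 without HPTE replicate 1), and collagen and matrix with slide as a fixed block (-0.0966), with the mean of all probes (-0.021) and without 1 array (-0.0649 without BPA replicate 2, to 0.182 without BPA replicate 3). Fatty acid synthesis (-0.08 to 0.20), amino acid stress (-0.09 to 0.10), Wnt, Hedgehog and Bmp patterning (-0.21 to 0.03), xenobiotic response (-0.12 to 0.13), immediate early (-0.22 to 0.02) and interferon response (-0.14 to 0.19) were the others, and of the 16 marker lists stroma and exocrine pancreas turned. The cholesterol, G2/M and S phase medians were positive in all 21 other fits or summaries of each. Of 73 called genes followed through the settings 0 turned sign. Called probes had groups without overlap and the fits reuse the same arrays, which left little room for a sign to turn. Of 45 followed genes that were not called 10 did, Fos, Inhbb, Cdkn1a, Nr4a1 and Mvp among them. 6 of the 24 genes with the largest differences were called whichever array was left out (Crtac1, Idi1, Sqle and Fdps among them). With 3 arrays per group the precision is limited, and a probe not above background on any array of a group gives only a bound.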
